A study of Mus musculus with 6 samples.

Results

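Transcripts of 9 genes known as markers of cranial motor and visceral motor neurons of the brainstem were measured in whole brains of control and PLDP mice. The genes are Phox2a, Isl1, Mnx1, Tbx20, Prph, Calca, Calcb, Chodl and Ret, and all 9 were found by Ensembl identifier among the 60354 features counted in each mouse, while 6 of them passed the filter on low counts. They were read as a check on how much caudal tissue each brain contributed. Brain RNA came from male C57BL/6NCrSlc mice, 3 fed a control diet (mice 2, 5 and 10) and 3 fed a diet with 20% PLDP, a protease-treated porcine liver product (mice 17, 22 and 26). The diets were given for 16 weeks to mice that were 16 weeks old at the start, the control diet being a modified AIN-93M diet with matched calories. All mice then went through the behavioral tests, during which no PLDP diet was given, and RNA was taken 1 day after the last test. Each library is 1 mouse, and the whole brain was used without dissection into regions.

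Motor neurons of the brainstem lie in the nuclei of the cranial nerves and send their axons out of the brain to muscles of the eye, face, jaw, throat and tongue, or to the ganglia of visceral organs. They are specified by homeodomain and T-box transcription factors, release acetylcholine, make the neuropeptide CGRP (calcitonin gene-related peptide) beside it, and depend on GDNF-family ligands that signal through Ret. They are a very small share of brain cells. Most of the markers are also used elsewhere, Ret by midbrain dopamine neurons, Isl1 by striatal and hypothalamic neurons, Phox2a by noradrenergic neurons and CGRP by neurons of the parabrachial nucleus and of sensory ganglia.

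Totals were between 18797061 and 23938729 counts per mouse, and mitochondrial transcripts took between 2.53% and 2.80%. Values are CPM, counts scaled to the library size with TMM factors. General neuronal markers overlapped between the diets, their summed level being 3572 to 3694 CPM in the control mice and 3588 to 3698 CPM in the PLDP mice. Pituitary hormone genes were near 0 except Pomc, which hypothalamic neurons also make, with Gh and Prl at 0 in all PLDP mice.

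The brainstem motor neuron markers differed in how the diets compared. Prph, Calca and Calcb, the gene of a neuronal filament protein and both CGRP genes, fell with PLDP when the unadjusted p was required to be under 0.05, while Isl1, Chodl and Ret did not pass. Phox2a, Mnx1 and Tbx20 had too few counts to be tested. Thus 3 of the 9 members were called lower and 0 higher, against 3.69% lower and 4.91% higher, 8.6% in all, of the 18580 features tested, and 1 of the 3, Calcb, could be tested only because of its level in the control mice. No member had an adjusted p under 0.05, which 0.0323% of all features had. The count of called members was 1 without control mouse 2 or without PLDP mouse 22, 2 without control mouse 5, and 1 with DESeq2. A lower value in whole brain can come from fewer cells of a type or from less RNA per cell, which cannot be told apart here.

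**Figure D1:**
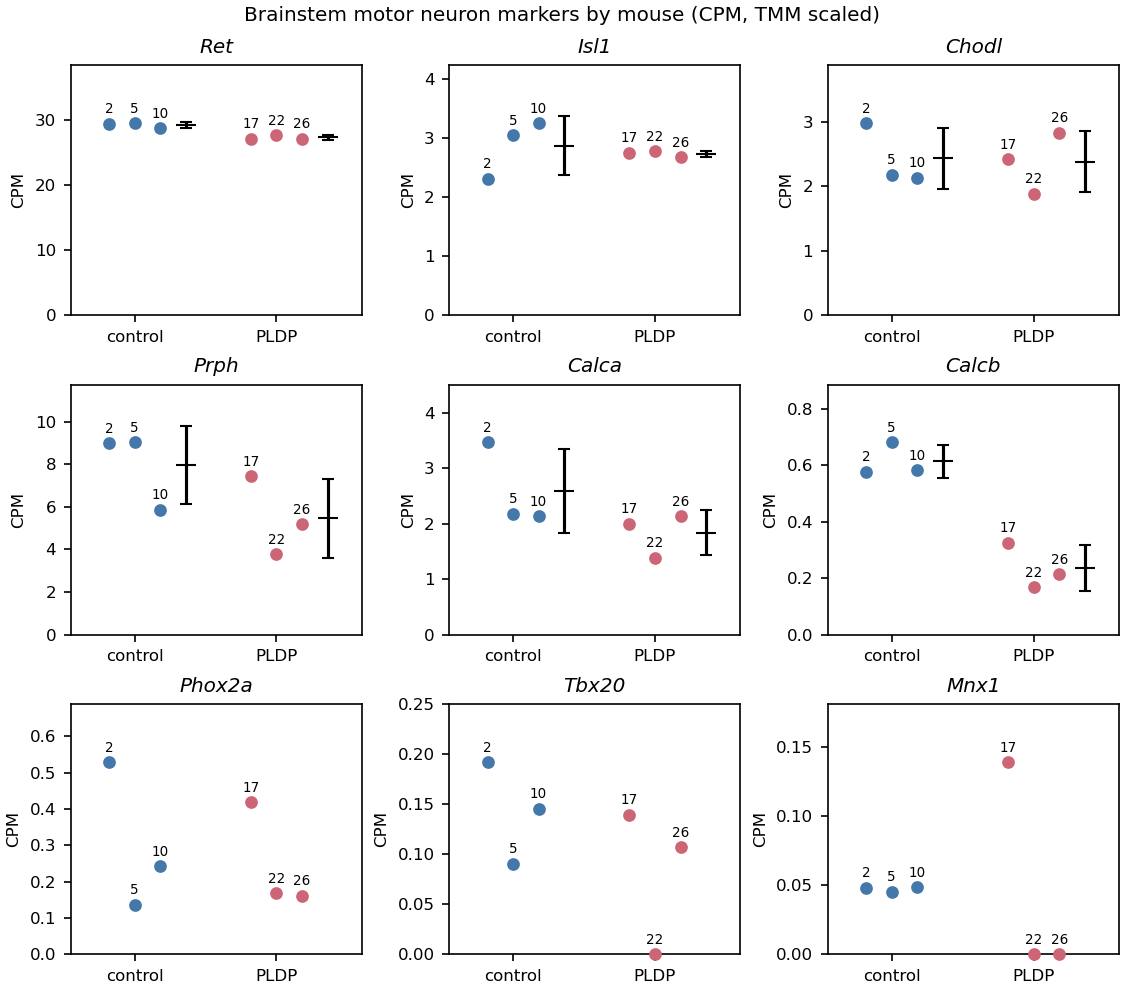
CPM of the 9 markers in each mouse, with mouse numbers above the points and each y axis starting at 0. Black bars give the mean and SD of 3 mice for the 6 tested genes. Only Calcb and Ret have all 3 PLDP mice below all 3 control mice, as do 6.9% of all features tested. Calcb passed the low-count filter only through the control mice. Mnx1 and Tbx20 lie below 0.20 CPM in every mouse.

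Prph encodes peripherin, an intermediate filament protein of neurons whose axons leave the central nervous system (ENSMUSG00000023484, chr15:99055174-99058978 of GRCm38, plus strand). It had 9.0, 9.03 and 5.87 CPM in control mice 2, 5 and 10, and 7.44, 3.77 and 5.18 CPM in PLDP mice 17, 22 and 26. The diets overlapped, since PLDP mouse 17 was above control mouse 10. The means were 7.96 ± 1.81 and 5.47 ± 1.85 CPM (SD, n = 3 mice each). The log2 fold change was -0.55 (standard error 0.20, 95% interval -0.97 to -0.13, unadjusted p = 0.0133, adjusted p = 0.444, quasi-likelihood test of edgeR).

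The call for Prph rested on several mice. Without PLDP mouse 22 the log2 fold change was -0.33 (unadjusted p = 0.0943), and without PLDP mouse 17 it was -0.85 (adjusted p = 0.0274). Without control mouse 2 or control mouse 5 the unadjusted p was 0.0566 and 0.0628. DESeq2 gave a p of 0.111. When every feature with a count was kept, the adjusted p was 0.00824, and over all settings it ranged from 0.00824 to 0.840.

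Peripherin's fall was set beside the other filament proteins of neurons. Of Nefl, Nefm, Nefh and Ina, the neurofilament subunits and internexin of axons throughout the brain, 1 of 4 was called lower and 0 higher. Over all features tested, 3.69% were called lower. The median log2 fold change of the 4 genes was -0.028. Nefl had means of 569.0 ± 13.9 CPM in control and 534.2 ± 4.0 CPM in PLDP mice (SD, n = 3 each) and fell by 0.09 on the log2 scale (adjusted p = 0.463 from edgeR's test). Nefh, the heavy subunit typical of large axons, had a log2 fold change of -0.06 (95% interval -0.19 to 0.06).

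Calca encodes the alpha form of CGRP and, by alternative splicing, calcitonin (ENSMUSG00000030669, chr7:114631478-114636357, minus strand). It had 3.46, 2.18 and 2.13 CPM in control mice 2, 5 and 10, and 2.00, 1.38 and 2.14 CPM in PLDP mice 17, 22 and 26. Control mouse 2 was the highest and PLDP mouse 22 the lowest, and the other 4 mice lay close together. The means were 2.59 ± 0.76 and 1.84 ± 0.40 CPM (SD, n = 3 each). Calca changed by a log2 fold of -0.51 (standard error 0.23, 95% interval -1.0 to -0.011, unadjusted p = 0.0455, adjusted p = 0.566 from edgeR's test). Without control mouse 2 it was -0.24 (unadjusted p = 0.324) and without PLDP mouse 22 it was -0.33 (unadjusted p = 0.207). DESeq2 and limma voom gave unadjusted p of 0.0881 and 0.0546.

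Calcb encodes the beta form of CGRP from a neighboring gene (ENSMUSG00000030666, chr7:114718643-114723365, plus strand). It was counted 12, 15 and 12 times in the control mice and 7, 4 and 4 times in the PLDP mice. This corresponds to 0.58, 0.68 and 0.58 CPM in control mice 2, 5 and 10, and to 0.33, 0.17 and 0.21 CPM in PLDP mice 17, 22 and 26. Every PLDP mouse was below every control mouse, a separation found for 6.9% of all features tested. Calcb changed by a log2 fold of -1.37 (standard error 0.42, 95% interval -2.25 to -0.49, unadjusted p = 0.00452, adjusted p = 0.326 from edgeR's test). The ratio of summed counts, 15 against 39, was 0.381 after scaling, with an exact 95% counting interval of 0.195 to 0.707. That interval covers counting error only and leaves out the variation between mice.

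Calcb passed the filter on low counts only through the control mice. The filter required 0.472 CPM in at least 3 mice, which all 3 control mice and 0 PLDP mice reached, so its passing was tied to a difference in this direction. Without any filter its log2 fold change was -1.37 (unadjusted p = 0.00419, adjusted p = 0.294). Its unadjusted p stayed under 0.05 in each of the 6 fits without 1 mouse, with log2 fold changes from -1.68 without PLDP mouse 17 to -1.15 without PLDP mouse 22. With at least 10 counts required in every mouse it was not tested.

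Both CGRP genes were compared per exon length. Calca exceeded Calcb by 4.50, 2.40 and 2.75 times in control mice 2, 5 and 10, and by 4.61, 6.19 and 7.51 times in PLDP mice 17, 22 and 26. The PLDP ratios rest on 4 to 7 Calcb counts per mouse, and Calcb was tested only because it was higher in the control mice, so no difference is read from them. The genes are close paralogs, and how reads shared between them were counted is not given in the sources used here. On the receptor side, of 9 genes for the CGRP receptor and related peptides, 7 were tested and 0 were called in either direction, with a median log2 fold change of 0.040. Calcrl, the receptor itself, had a log2 fold change of 0.04 (95% interval -0.21 to 0.30), and Ramp1, the partner that makes it a CGRP receptor, of 0.04 (95% interval -0.08 to 0.16).

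**Figure D2:**
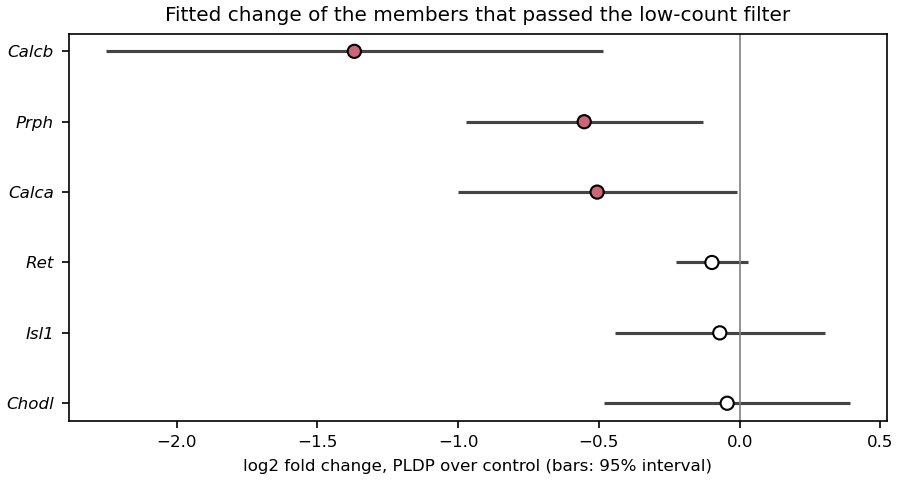
Fitted log2 fold change, PLDP over control, of the 6 members that passed the low-count filter, with 95% intervals. Filled points have an unadjusted p under 0.05. Calcb at -1.37, Prph at -0.55 and Calca at -0.51 have intervals below 0, and those of Ret, Isl1 and Chodl include 0.

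Upstream sequences were compared between Prph and Calca, which were called lower, and Isl1 and Chodl, which were not, since factors such as Isl1, Phox2a and Mnx1 bind DNA through a homeodomain. The lines give the 250 bases before the start site on the gene's own strand, from RefSeq on GRCm38.p6. Capitals mark the homeodomain core TAAT on either strand (ATTA on the other) and the TATA box TATAAA on either strand.
Prph, chr15:99054924-99055173, plus strand: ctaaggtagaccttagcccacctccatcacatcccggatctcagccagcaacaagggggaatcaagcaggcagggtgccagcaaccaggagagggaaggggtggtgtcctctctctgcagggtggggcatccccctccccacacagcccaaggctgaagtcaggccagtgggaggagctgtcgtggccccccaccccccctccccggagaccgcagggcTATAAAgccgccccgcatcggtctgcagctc
Calca, chr7:114636358-114636607, minus strand: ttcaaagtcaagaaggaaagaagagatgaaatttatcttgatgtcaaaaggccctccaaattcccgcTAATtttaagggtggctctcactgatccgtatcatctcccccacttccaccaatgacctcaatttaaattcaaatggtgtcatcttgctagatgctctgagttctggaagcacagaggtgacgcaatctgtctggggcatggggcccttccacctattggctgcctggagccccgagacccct
Isl1, chr13:116309689-116309938, minus strand: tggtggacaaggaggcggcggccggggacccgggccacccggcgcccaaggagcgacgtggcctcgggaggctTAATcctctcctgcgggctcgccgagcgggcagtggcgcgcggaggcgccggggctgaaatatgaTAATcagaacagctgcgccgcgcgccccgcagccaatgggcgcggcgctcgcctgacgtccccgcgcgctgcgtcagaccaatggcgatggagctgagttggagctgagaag
Chodl, chr16:78930698-78930947, plus strand: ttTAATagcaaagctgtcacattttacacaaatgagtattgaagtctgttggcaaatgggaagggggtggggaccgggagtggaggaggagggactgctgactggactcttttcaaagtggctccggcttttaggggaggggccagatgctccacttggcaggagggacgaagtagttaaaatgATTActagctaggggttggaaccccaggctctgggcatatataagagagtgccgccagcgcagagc

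Prph held TATAAA, its first base at -31 from the start site, and no TAAT. Other forms of the TATA box were not searched, and the Chodl line holds one such form, tatataa, near its end. Calca held TAAT 1 time, at -183, and Isl1 and Chodl held it 2 times each, at -177 and -112 and at -248 and -66. TAAT was found in 54.9% of 32851 upstream windows of the same length and in 5 of the 7 members with a window (all but Calcb and Ret), and TATAAA in 12.4% and in 1 of 7. The core of cAMP response elements, TGACG on either strand, was found in Calca at -65, in Isl1 and in Tbx20, and in 17.8% of all windows. These matches are letters in a window and not measured binding.

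Isl1 encodes a LIM homeodomain factor required for the generation of motor neurons (ENSMUSG00000042258, chr13:116298281-116309689, minus strand). It had 2.31, 3.04 and 3.25 CPM in control mice 2, 5 and 10, and 2.74, 2.77 and 2.67 CPM in PLDP mice 17, 22 and 26. The PLDP mice lay inside the range of the control mice. Its log2 fold change was -0.07 (standard error 0.18, 95% interval -0.44 to 0.30, adjusted p = 0.951 from edgeR's test). It was 0.025 without control mouse 10. Control mouse 2, the highest for Calca and Chodl, was the lowest for Isl1.

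Phox2a encodes a homeodomain factor of oculomotor, trochlear and visceral motor neurons and of noradrenergic neurons (ENSMUSG00000007946, chr7:101818313-101822726, plus strand). Its counts were 11, 3 and 5 in the control mice and 9, 4 and 3 in the PLDP mice. The highest control mouse and the highest PLDP mouse, 2 and 17, stood above the other 4. The ratio of summed counts was 0.834, with an exact 95% counting interval of 0.401 to 1.71, and a difference was not detectable at this depth. Of its exon bases, 95 are shared with Inppl1 on the opposite strand.

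Tbx20, a T-box factor of branchial and visceral motor neurons (ENSMUSG00000031965, chr9:24718138-24774303, minus strand), was counted 4, 2 and 3 times in the control mice and 3, 0 and 2 times in the PLDP mice. The ratio of 5 to 9 counts was 0.550 after scaling, with a counting interval of 0.145 to 1.83. Mnx1, the homeodomain factor that defines somatic motor neurons of the hindbrain and spinal cord (ENSMUSG00000001566, chr5:29473034-29478470, minus strand), was counted 1 time in each control mouse and 3, 0 and 0 times in the PLDP mice. With 3 summed counts in each diet no fold is given for Mnx1. The intervals cover counting error only.

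Chodl encodes chondrolectin, a membrane lectin of fast motor neurons (ENSMUSG00000022860, chr16:78930948-78951733, plus strand). It had 2.98, 2.18 and 2.13 CPM in control mice 2, 5 and 10, and 2.42, 1.89 and 2.83 CPM in PLDP mice 17, 22 and 26. The diets overlapped widely. The log2 fold change was -0.04 (standard error 0.21, 95% interval -0.48 to 0.39, adjusted p = 0.973 from edgeR's test). It was 0.13 without control mouse 2 and 0.11 without PLDP mouse 22.

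Ret encodes the receptor tyrosine kinase for GDNF-family ligands (ENSMUSG00000030110, chr6:118151745-118197718, minus strand). It was the most highly counted member, with 29.4, 29.5 and 28.7 CPM in control mice 2, 5 and 10, and 27.1, 27.6 and 27.1 CPM in PLDP mice 17, 22 and 26. Every PLDP mouse was below every control mouse, and mice of 1 diet differed little. The means were 29.2 ± 0.42 and 27.3 ± 0.32 CPM (SD, n = 3 each). The log2 fold change was -0.10 (standard error 0.06, 95% interval -0.23 to 0.029, unadjusted p = 0.122, adjusted p = 0.685 from edgeR's test), so the difference did not pass. Separation of this kind, with PLDP lower, was found for 6.9% of all features tested. Of the 6 tested members it was found for Ret and for Calcb, and Calcb had to separate to be tested, since only control mice reached the level that the filter required. The opposite separation was found for 0 members and 7.29% of all features.

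Ligands and co-receptors of Ret were listed with it. Of 10 such genes 6 were tested and 0 were called in either direction, with a median log2 fold change of 0.023. Gfra1 and Gfra2, the co-receptors for GDNF and neurturin, had log2 fold changes of 0.0065 (95% interval -0.12 to 0.13) and 0.10 (95% interval -0.04 to 0.24). Gdnf itself was between 0.43 and 1.05 CPM in all mice, and Gfra3 between 0 and 0.053 CPM. Slc6a3, the dopamine transporter of midbrain neurons that also use Ret, had a log2 fold change of 0.03 (95% interval -0.29 to 0.35).

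**Figure D3:**
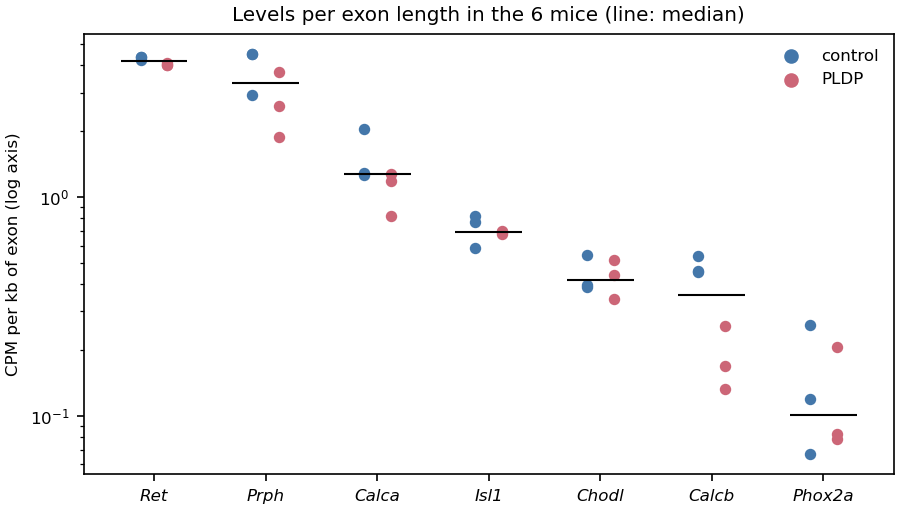
CPM per kb of exon on a log axis for the 7 members with a count in every mouse, 1 point per mouse and the median as a line. Levels run from Ret with a median of 4.17 to Phox2a with a median of 0.101 CPM per kb.

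Levels were ordered per exon length over the 6 mice. Ret was highest with a mean of 4.17 ± 0.16 CPM per kb, followed by Prph with 3.36 ± 1.07, and their ranges overlapped (SD, n = 6 mice). Prph was above Ret in control mice 2 and 5 and below it in control mouse 10 and every PLDP mouse. Calca followed with 1.32 ± 0.40 CPM per kb, overlapping the lowest Prph value. Isl1 with 0.71 ± 0.082 lay just below the range of Calca, and Chodl with 0.44 ± 0.078 below the range of Isl1. Calcb with 0.34 ± 0.17 CPM per kb overlapped both Chodl and Phox2a with 0.14 ± 0.079. The place of Calcb varied among mice, and no difference between diets is read from it. Calcb had 0.457, 0.538 and 0.460 CPM per kb in control mice 2, 5 and 10 against 0.543, 0.397 and 0.389 for Chodl, so that Calcb was above Chodl in mice 5 and 10. In PLDP mice 17, 22 and 26 Calcb had 0.257, 0.133 and 0.169 CPM per kb, below Chodl in each. Mnx1 and Tbx20 were last with 0.021 ± 0.023 and 0.0094 ± 0.0054 CPM per kb, and they overlapped each other. The highest mouse exceeded the lowest 1.09 times for Ret, 1.41 times for Isl1, 1.58 times for Chodl, 2.39 times for Prph, 2.5 times for Calca and 4.06 times for Calcb.

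PLDP mouse 22 was the lowest of the 6 mice for 4 of the 6 tested members, Prph, Calca, Calcb and Chodl, although for Calcb PLDP mouse 26 had the same count of 4. Control mouse 5 was the highest for Prph, Calcb and Ret, and control mouse 2 for Calca and Chodl. All 9 members had a lower mean CPM in the PLDP mice, a count in which Mnx1, with 3 counts in each diet, and other members with small differences weigh the same as Prph. Over all features tested, 50.2% had a log2 fold change below 0.

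**Figure D4:**
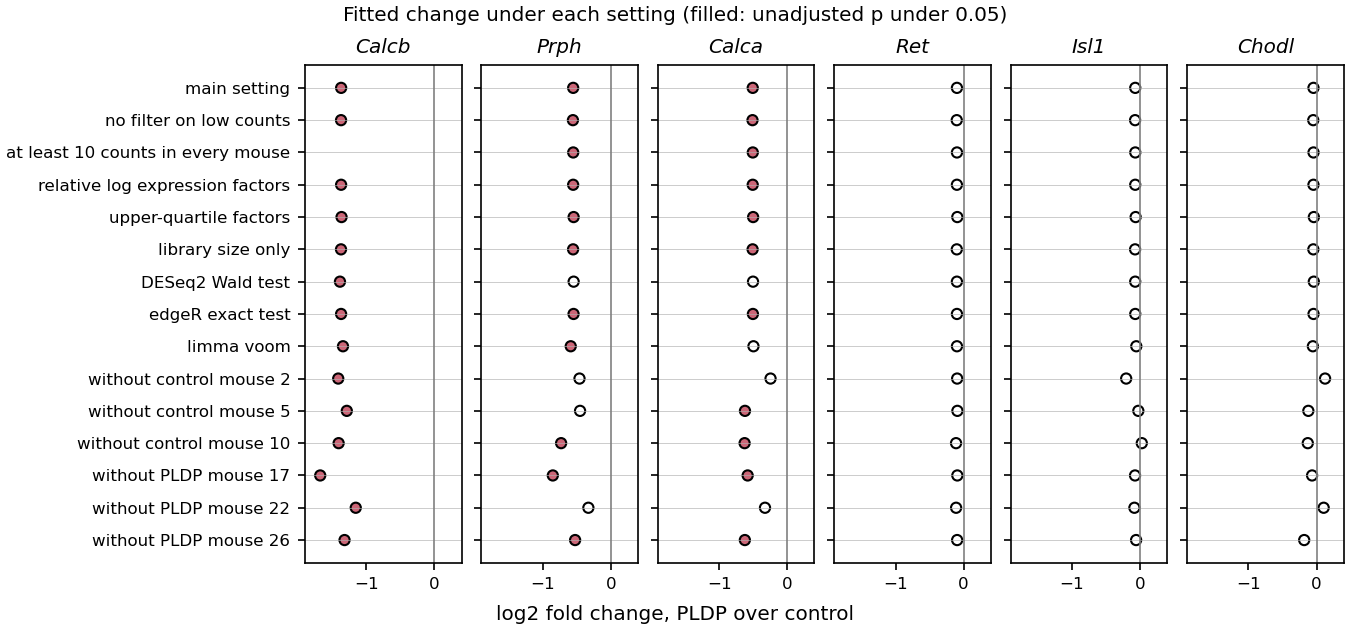
Log2 fold change of the 6 tested members under the main setting and each alternative, filled where the unadjusted p was under 0.05. Calcb, which the filter let through only for its control level, has no point with at least 10 counts in every mouse. Prph and Calca lose the call without PLDP mouse 22, without control mouse 2 and with DESeq2, and Prph also without control mouse 5 and Calca also with limma voom.

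Other genes of motor neurons gave a mixed picture. Of 20 listed, 18 were tested, 3 were called lower and 1 higher, against 3.69% and 4.91% of all features tested. The list's median log2 fold change was -0.13, against -0.00062 over all features tested. Nkx6-1, a homeodomain factor of motor neuron progenitors, had a log2 fold change of -0.70 (adjusted p = 0.541 from edgeR's test). Spp1, osteopontin of large motor neurons and of other cells, had one of -0.19 (adjusted p = 0.447). Vipr2, a receptor for the peptide VIP, was higher, with a log2 fold change of 0.26 (adjusted p = 0.548), and no gene of this list was called higher with DESeq2 or without control mouse 5, control mouse 10, PLDP mouse 22 or PLDP mouse 26. No gene of this list was called lower without control mouse 2 or without control mouse 10.

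Cholinergic genes were measured because motor neurons release acetylcholine, as do neurons of the basal forebrain and striatum. Chat, the enzyme that makes acetylcholine, had 5.58, 5.04 and 4.12 CPM in control mice 2, 5 and 10, and 4.51, 5.07 and 5.56 CPM in PLDP mice 17, 22 and 26. The log2 fold change of Chat was 0.03 (95% interval -0.27 to 0.34, adjusted p = 0.970 from edgeR's test). Slc18a3, the vesicular transporter, had one of -0.10 (adjusted p = 0.899). Of the 5 genes of this list 2 were called lower, against 3.69% of all features tested. Slc5a7, the choline transporter, had 11.3, 10.7 and 11.7 CPM in control mice 2, 5 and 10, and 6.79, 6.67 and 8.98 CPM in PLDP mice 17, 22 and 26, without overlap. Slc5a7 fell by 0.60 on the log2 scale (unadjusted p = 8.51e-05, adjusted p = 0.0785 from edgeR's test). Prima1, the membrane anchor of acetylcholinesterase, fell by 0.23 (adjusted p = 0.539).

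Genes of caudal position are given beside the members because they were also lower in the PLDP mice. Hox genes of the hindbrain and cervical cord summed to 27.4, 22.5 and 23.3 CPM in control mice 2, 5 and 10, and to 19.9, 5.87 and 8.44 CPM in PLDP mice 17, 22 and 26. Prph had the same order in the PLDP mice but not in the control mice, where mouse 5 was highest for Prph and lowest for the Hox sum. Calca was highest in mouse 26 among the PLDP mice, and Calcb, with 4 counts in both mice 22 and 26, gives no order. Of 16 such Hox genes 10 were tested and 9 were called lower, against 3.69% of all features tested. Of the 10, 5 had passed the filter through the control mice alone. The fit without PLDP mouse 22 called 5 lower. Hoxb8, which marks the cervical and thoracic cord, had 4.71, 2.95 and 3.30 CPM in the control mice, and 1.81, 0 and 0 CPM in PLDP mice 17, 22 and 26. More caudal Hox genes, Hoxa9, Hoxa10, Hoxc9, Hoxc10, Hoxd9, Hoxd10 and Hoxd11, had 0 counts in every mouse.

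Of 6 genes of glycine neurons of the hindbrain and spinal cord, 2 were called lower (3.69% of all features tested) and 0 higher. Slc6a5, their glycine transporter, had 49.4, 44.0 and 42.1 CPM in control mice 2, 5 and 10, and 31.0, 22.4 and 32.7 CPM in PLDP mice 17, 22 and 26. Glra1, a glycine receptor subunit, had 89.5, 85.1 and 86.2 CPM in the control mice and 68.3, 49.4 and 67.7 CPM in the PLDP mice. Slc6a5 and Glra1 fell by 0.66 and 0.50 on the log2 scale (adjusted p = 0.0369 and 0.0592 from edgeR's test). In both genes PLDP mouse 22 was the lowest, as for Prph and Calca. The part of caudal tissue content in the fall of Prph, Calca and Calcb was not tested.

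Noradrenergic and serotonin neurons also lie in the brainstem. Of the 5 noradrenergic genes 0 were called, and Dbh, the enzyme that makes noradrenaline in cells that also use Phox2a, had a log2 fold change of -0.21 (95% interval -0.61 to 0.19). Of the 5 serotonin genes of the raphe 0 were called, with a median log2 fold change of 0.046. Sensory ganglion genes were checked because Prph, Calca, Calcb and Ret are also strong in those cells. They summed to 30.8 to 35.6 CPM in the control mice and 28.2 to 35.8 CPM in the PLDP mice. Of the 11 genes 7 were tested and 1, Pou4f1, was called lower, against 3.69% of all features tested. The defining nociceptor genes were near 0, Mrgprd at 0 in all mice and Trpv1 at no more than 0.23 CPM. Pmp2, a gene of Schwann cells, was at no more than 0.045 CPM. Schwann cell genes summed to 72.3 to 77.5 CPM in the control mice and 68.4 to 74.2 CPM in the PLDP mice, mostly from Sox10, which oligodendrocytes share. Of the 7 Schwann cell genes 6 were tested and 1, Sox10, was called lower, against 3.69% of all features tested. Sox10 had a log2 fold change of -0.14 (adjusted p = 0.456 from edgeR's test) and all PLDP mice below all control mice.

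Forebrain and cerebellar genes were listed as a measure of rostral and dorsal tissue. Of 8 genes each for cortex and hippocampus, striatum and cerebellum, 1, 0 and 0 were called higher and 0 lower, with median log2 fold changes of 0.063, 0.0054 and -0.012. The cortex and hippocampus genes summed to 1131 to 1187 CPM in the control mice and 1195 to 1244 CPM in the PLDP mice, without overlap. Of these 8 genes 7 had a log2 fold change above 0. For 1 of them, Neurod2, all PLDP mice were above all control mice, as for 7.29% of all features tested. Most of this sum was Slc17a7, a vesicular glutamate transporter, with 887.6 to 927.9 CPM in control and 925.0 to 988.9 CPM in PLDP mice, which overlapped. The cerebellar genes summed to 873.9 to 1029 CPM and 851.5 to 1033 CPM, with wide overlap. Of 9 glial and vascular genes 4 were called lower and 0 higher.

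**Figure D5:**
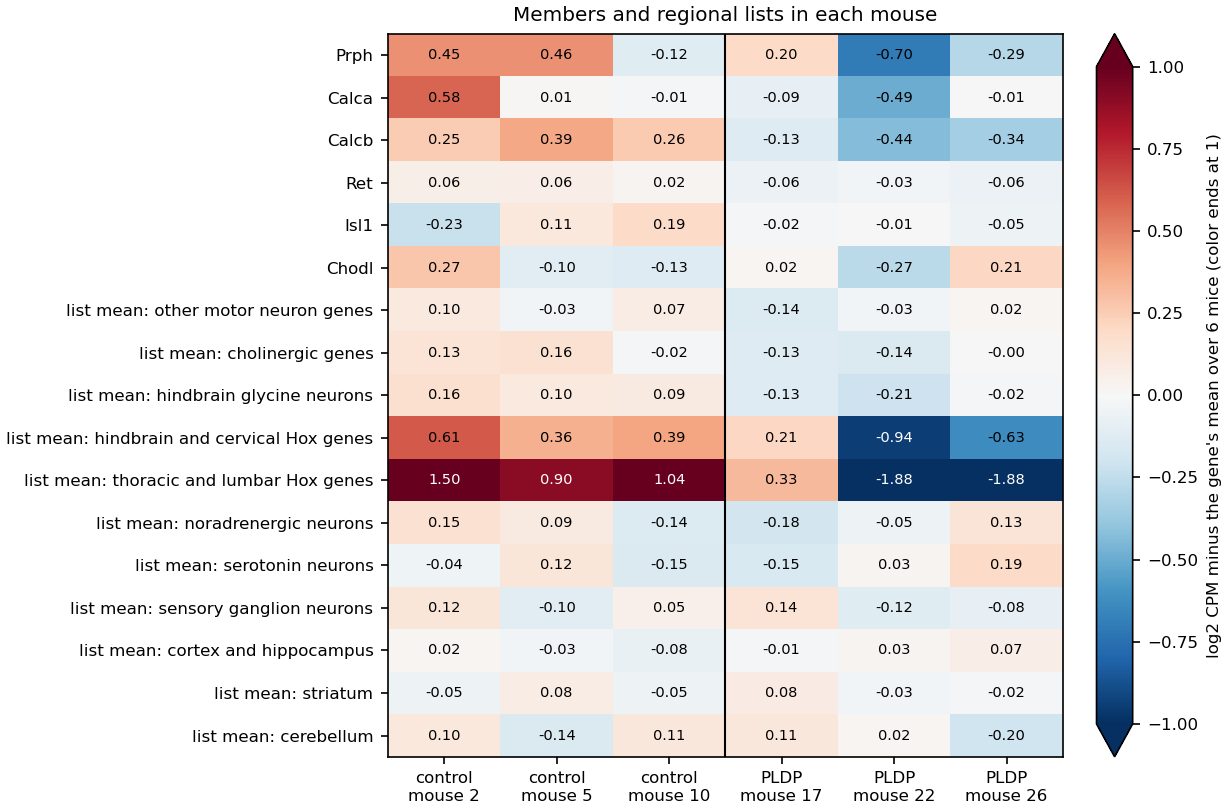
Log2 CPM minus each gene's mean over the 6 mice, for the 6 tested members and for the means of regional gene lists (tested genes only, 1 for the thoracic and lumbar Hox list), with control mice left of the line. In PLDP mouse 22 Prph is at -0.70, Calca at -0.49, Calcb at -0.44, Chodl at -0.27, Ret at -0.030 and Isl1 at -0.0072. The hindbrain and cervical Hox list is at -0.94 in that mouse and the glycine list at -0.21. The other motor neuron, noradrenergic and serotonin lists are at -0.029, -0.049 and 0.031 there. The cortex, striatum and cerebellum lists stay between -0.20 and 0.11 over the 6 mice.

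The genes whose values over the 6 mice were most like the mean of the 6 tested members were Naglu, Adgrg2, Zfp354b, Galnt12 and Cebpzos. Likeness was the root mean square difference between centered log2 CPM profiles, which was 0.044 for Naglu and 0.062 for Cebpzos on the log2 scale. Naglu, a lysosomal enzyme, had 11.8, 10.8 and 10.5 CPM in control mice 2, 5 and 10, and 10.5, 8.26 and 9.19 CPM in PLDP mice 17, 22 and 26. These are the closest of 18580 features over only 6 mice.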

How the data were processed

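Libraries were made from polyadenylated brain RNA with a stranded kit and sequenced as paired reads. The authors deposited 1 table of whole-number read counts per mouse, without normalization. The submitters' processing notes name cutadapt 2.9, HISAT2 2.2.0, featureCounts 2.6.0 and DESeq2 1.6.3 and the builds GRCm38 and GRCh38. Annotation, strand setting and treatment of shared reads are not given in the sources used here. Symbols and coordinates were matched by Ensembl identifier to GENCODE M21 (GRCm38), and 1 gene of the lists was not matched.

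The quasi-likelihood analysis used edgeR 4.0.16 under R 4.3.3, with TMM factors, filterByExpr (minimum count 10, minimum total count 15) and diet as its sole covariate. A call was an unadjusted p under 0.05, the study's threshold, with Benjamini-Hochberg adjustment over all 18580 features tested beside it. For a single gene, exact permutation of 3 and 3 mice gives a two-sided p of 0.1 at best. Alternatives were 2 other filters, 3 other scalings, DESeq2 1.42.0, edgeR's exact test, limma 3.58.1 voom, and leaving out each mouse. The fit was tested on simulated data. The members and gene lists were chosen with earlier results of these data known. Named genes were all members, up to 3 called genes of each of the other 20 lists, list genes that show whether a cell type or region is present, and the 5 genes most like the members. Further list genes were picked with their values in view, and some list genes are not reported here.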

Additional observations from a re-analysis of the deposited data

How the results depend on the processing

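The calls of Prph and Calca were lost with DESeq2 and without some mice. That of Calcb was kept where it was tested, which is no sign of stability, since it passed the filter only through the control mice. DESeq2 called 1 member lower (3 in the analysis as reported), 362 features lower (685) and 564 higher (913), 1 other motor neuron gene lower (3) and 0 higher (1), and 1 cholinergic gene lower (2). Without a filter on low counts, 1046 of 36099 features (2.9%, against 3.69% of 18580) and 5 of 20 other motor neuron genes (3 of 18) were called lower. Fits without 1 mouse called 1 to 3 members lower, from 493 to 1072 features lower, 0 to 4 other motor neuron genes lower and 0 to 2 higher, 1 to 3 cholinergic genes lower, and 5 to 10 hindbrain and cervical Hox genes lower, the fewest without PLDP mouse 22. The most features were called lower without PLDP mouse 17. Without 1 mouse, the log2 fold change of Isl1 ranged from -0.20 to 0.025, turning positive without control mouse 10, and that of Chodl from -0.18 to 0.13, turning positive without control mouse 2 and, with 0.11, without PLDP mouse 22. The causes of these changes were not tested. Phox2a, Mnx1 and Tbx20 had at most 11 counts in a mouse, and the filter of 10 counts in every mouse removed Calcb. No paired analysis was possible because the mouse numbers are not shared between the diets.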

Other observations

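Several gene lists of other cell types are given here as values. Of 8 hypothalamic genes 7 were tested and 2 were called lower, against 3.69% of all features tested. Gal, the neuropeptide galanin, had means of 3.66 ± 0.57 CPM in control mice and 2.37 ± 0.25 CPM in PLDP mice (SD, n = 3 each), with all PLDP mice below all control mice (adjusted p = 0.306 from edgeR's test). Pmch, the precursor of melanin-concentrating hormone, had 15.7, 16.7 and 15.0 CPM in control mice 2, 5 and 10, and 7.67, 14.2 and 15.1 CPM in PLDP mice 17, 22 and 26, so that its lower mean came from PLDP mouse 17. Of 5 genes of midbrain dopamine neurons 4 were tested. Only Nr4a2, their orphan nuclear receptor, was called higher, against 4.91% of all features tested, with a log2 fold change of 0.23 (adjusted p = 0.291). Neurod2, a transcription factor of cortical and hippocampal neurons, was called higher with a log2 fold change of 0.14 (adjusted p = 0.448). Glial genes called lower included Mbp of myelin, the astrocyte water channel Aqp4 and the microglial receptor P2ry12. Mbp had 3439 CPM in PLDP mouse 17, against 3016 and 3025 CPM in PLDP mice 22 and 26.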
